A study of Mus musculus with 53 samples.

Results

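T-cell lymphoblastic tumours of Pokemon transgenic mice (2 arrays) were compared directly with those of ThPOK transgenic mice (3 arrays), taken by the genotype labels from a series of 53 tumour arrays in 15 predisposing backgrounds. All 5 tumours came from the C57BL/6 strain, were untreated and were labelled negative for TLX1 lymphoma. Total RNA was hybridised to 1 Affymetrix array per tumour. The labels used here do not name the promoter of either transgene, the cells that express it, or the age and sex of the mice. Xist, the RNA of the inactive X chromosome, was high on both Pokemon arrays and low on all 3 ThPOK arrays, as described at the end. Nothing in the labels says that the tumours came from separate animals, so the p-values speak of samples and not of animals. They rest on the spread between arrays of the same background, pooled over all 53 arrays, and not on these 5 tumours alone. The other 48 arrays served as the background for levels. Of these, 36 arrays of 11 backgrounds without a TLX1 transgene formed a common baseline for both groups. Its knockout tumours lacked p53, E2A, Rag together with E2A, or Cdkn2a, the last from retroviral insertional mutagenesis. Its transgenic tumours carried Tal1 alone, Tal1 plus LMO2, the NUP98-HOXD13 fusion, LMO1 alone, LMO1 plus an Olig gene, or beta-catenin. Tumours of the Ikaros Plastic background were also part of it. All levels below are log2 of the deposited intensity, and all differences are Pokemon minus ThPOK on that scale unless another baseline is named.

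Pokemon, also called LRF, is the product of Zbtb7a, and ThPOK is the product of Zbtb7b. Both proteins pair a BTB domain, which binds corepressors, with closely related zinc fingers that bind DNA, and both act mainly as transcriptional repressors. In the thymus ThPOK commits cells to the CD4 helper lineage and silences CD8 and cytotoxic genes, in opposition to Runx3, whereas LRF limits Notch signalling in haematopoietic stem cells, supports helper lineage genes together with ThPOK and represses the tumour suppressor Arf in mouse fibroblasts.

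The gene named by the Pokemon label had the lowest adjusted p of the comparison. Zbtb7a had levels of 12.13 and 12.02 in the Pokemon tumours, against 8.35, 8.41 and 8.47 in the ThPOK tumours. Both Pokemon arrays lay far above every ThPOK array and above all 48 other arrays, which ranged from 7.80 to 10.23 with a median of 8.72. The difference of 3.66 ± 0.25 (SE; 95% interval 3.15 to 4.17) was 12.7-fold, with a limma adjusted p of 7.28e-14. Among the 15 backgrounds Pokemon had the highest mean level, followed by TLX1 with RUNX heterozygosity at 9.83 ± 0.28 and TLX1 alone at 9.30 ± 0.27 (SD, n = 6 each), while ThPOK stood at rank 12. Against the 11 backgrounds Zbtb7a was 3.45 higher in the Pokemon tumours (adjusted p = 2.07e-16) and -0.21 apart in the ThPOK tumours (adjusted p = 0.379). In bulk tumour RNA, fewer cells of a type and less RNA per cell cannot be told apart.

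The gene named by the ThPOK label was measured by a pair of probe sets that gave different answers. With the dimmer probe set, Zbtb7b had levels of 8.35 and 8.34 in the Pokemon tumours, against 9.77, 9.60 and 9.48 in the ThPOK tumours. The groups did not overlap, and all 3 ThPOK arrays were high. The difference of -1.27 ± 0.20 had an adjusted p of 3.0e-05 in the limma fit of all probe sets. ThPOK ranked 2 of the 15 backgrounds for this probe set, at 9.62 ± 0.15 (SD, n = 3), after TLX1 at 9.86 ± 0.22 (SD, n = 6) and before the p53 knockout tumours at 9.53 ± 0.49 (SD, n = 3). The order of these neighbours was within their spread, and Pokemon ranked 14. Against the 11 backgrounds this probe set was -0.37 apart in the Pokemon tumours (adjusted p = 0.197) and 0.90 higher in the ThPOK tumours (adjusted p = 2.87e-06).

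The brighter probe set of Zbtb7b was the one used for the gene in the comparison over all genes. It had levels of 9.09 and 9.27 in the Pokemon tumours, against 9.57, 9.66 and 9.50 in the ThPOK tumours. The groups again did not overlap, but the gap was small, and the difference of -0.40 ± 0.29 (95% interval -0.97 to 0.18) did not pass the test (adjusted p = 0.397). Zbtb7b as the mean of its probe sets differed by -0.84 (adjusted p = 0.0122). The label Pokemon was therefore matched by its gene on every array, and the label ThPOK by 1 of 2 probe sets of its gene. The labels do not say which part of the gene the ThPOK transgene carries, so the place of each probe set relative to it was not checked.

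**Figure D1:**
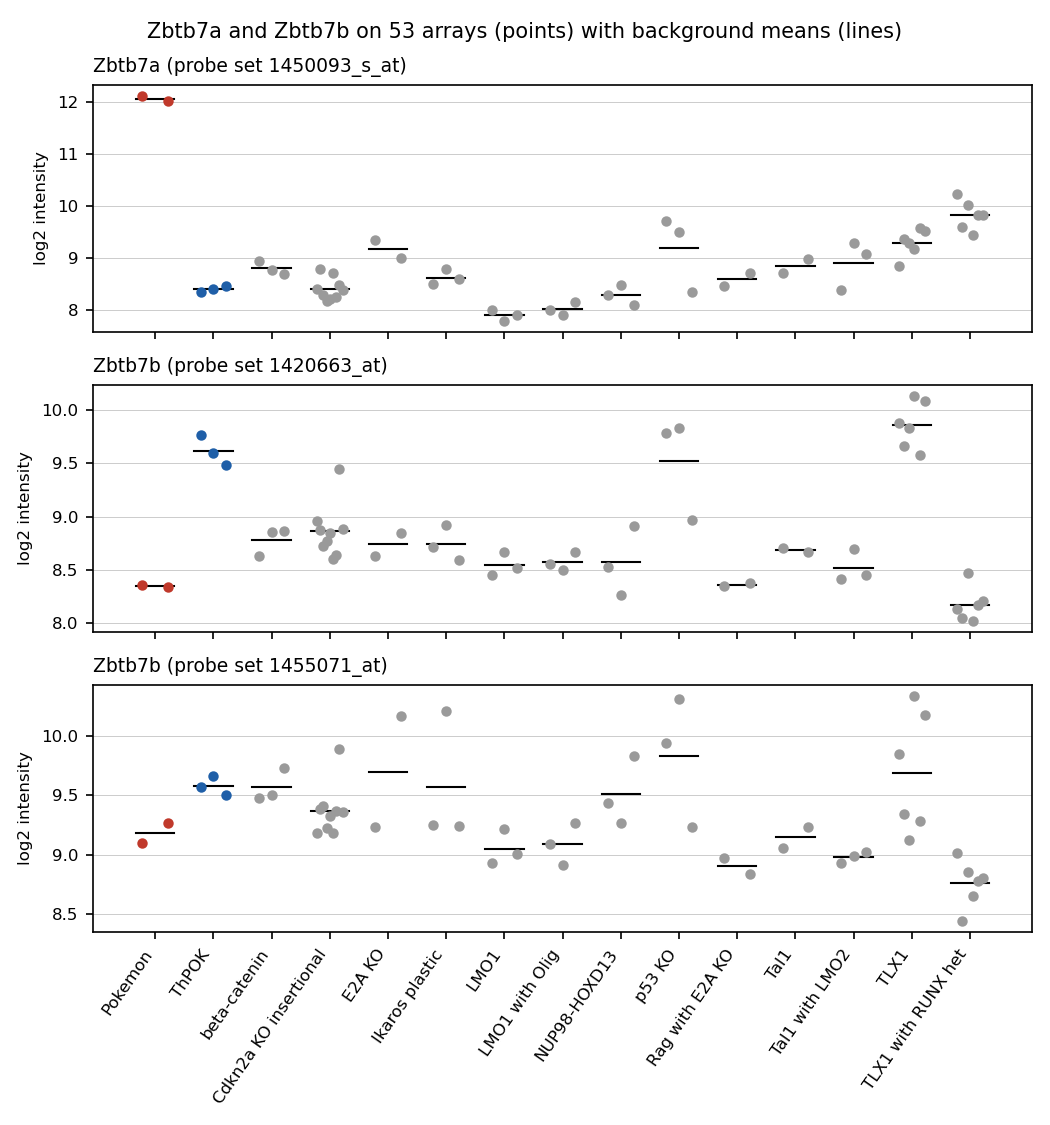
Levels of Zbtb7a (1 probe set) and Zbtb7b (2 probe sets) on the log2 intensity axis for each of 53 arrays (points), with the mean of each of 15 backgrounds (lines); red is Pokemon, blue is ThPOK and grey is any other background. The Pokemon arrays lie above all others for Zbtb7a, and the ThPOK arrays rank second to TLX1 in the middle panel, which shows the dimmer probe set of Zbtb7b.

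With the probe set used for each gene, no other tested member of the ZBTB family passed. Of 46 family genes listed, 22 were tested, and Zbtb7a alone was called, beside 11.9% of all genes called in either direction. Zbtb7c, the closest further relative, had levels of 8.76 and 9.13 in the Pokemon tumours, against 9.21, 9.37 and 8.99 in the ThPOK tumours, with a difference of -0.24 ± 0.34 (adjusted p = 0.705). These groups overlapped. Zbtb18, a neuronal repressor, had the next largest difference of the family at 0.94 ± 0.43 (adjusted p = 0.155). Bcl6, a transcriptional repressor that follicular helper cells require, differed by -0.07 ± 0.39 (adjusted p = 0.931). Zbtb16, which encodes PLZF of innate-like T cells, differed by -0.17 ± 0.22 (adjusted p = 0.674). The family median was -0.20, beside -0.09 for all 9156 genes tested.

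Of the 9156 genes, 242 were higher and 850 were lower in the Pokemon tumours at a limma adjusted p under 0.05, which is 2.64% and 9.28% of the genes and 11.9% in either direction. Past 2-fold, 51 genes (0.557%) were higher and 81 (0.885%) were lower. Without any test, the Pokemon and ThPOK arrays did not overlap for 5259 genes (57.4%), and 1086 of the called genes (11.9% of all) were among them. The other 6 called genes overlapped. At an unadjusted p under 0.05 the genes numbered 2405 (26.3%).

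Most of the lower calls were among the dimmest genes. In the dimmest tertile of 3052 genes, 35 were higher and 533 were lower, with a median difference of -0.29. In the middle tertile 86 were higher and 255 lower, with a median of -0.10. In the brightest tertile the balance turned, with 121 higher, 62 lower and a median of 0.08. The median log2 level of an array was 8.83 to 8.92 in the Pokemon tumours and 8.99 to 9.04 in the ThPOK tumours, and the lower quartile was 7.89 to 8.02 in the Pokemon tumours and 8.11 to 8.16 in the ThPOK tumours. Centring each array on its median moved all differences up by 0.14 and gave 420 higher and 509 lower genes, whereas quantile normalization gave 247 higher and 650 lower. The part of the array medians in the excess of lower calls was not tested otherwise.

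Leaving out 1 array also moved the counts. Without Pokemon array 1 there were 50 higher and 120 lower genes, and without Pokemon array 2 there were 82 higher and 699 lower. Without ThPOK arrays 1, 2 and 3 in turn the higher genes numbered 181, 164 and 135, and the lower genes 652, 561 and 647. The Pearson correlation of arrays over probe sets was 0.981 between the Pokemon arrays, 0.971 to 0.982 within the ThPOK arrays and 0.937 to 0.947 between the groups.

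**Figure D2:**
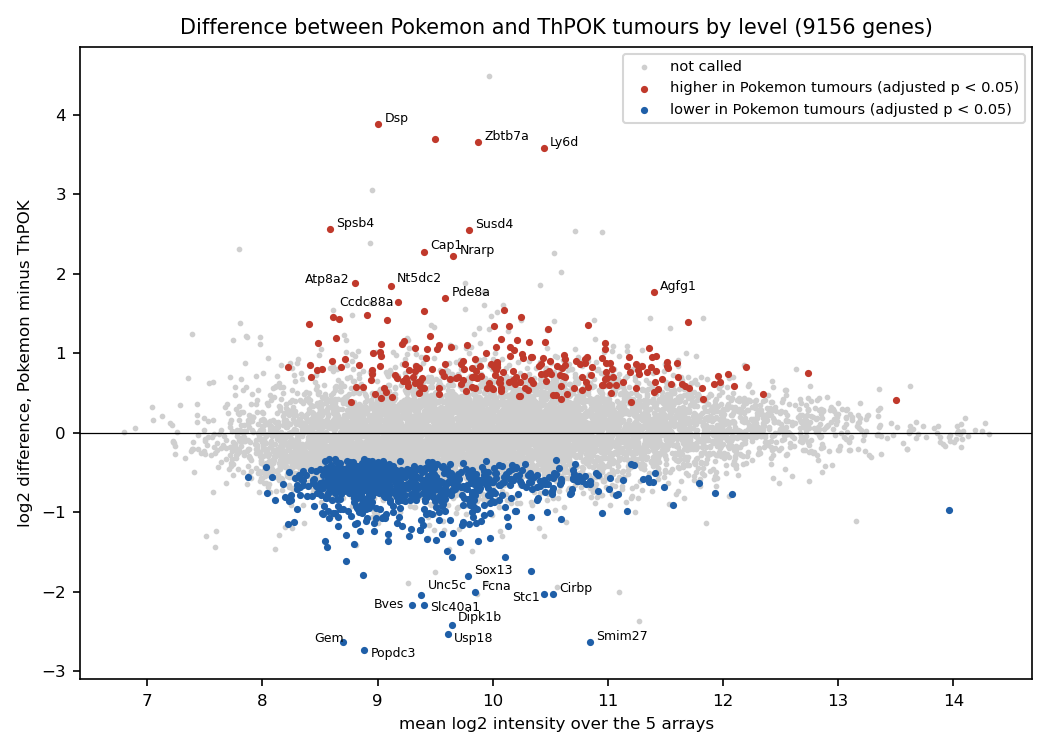
Each point is 1 of 9156 genes, with its mean log2 intensity over the 5 arrays on the horizontal axis and the log2 difference, Pokemon minus ThPOK, on the vertical axis; red genes were higher and blue genes lower in Pokemon tumours at an adjusted p under 0.05, grey genes were not called. The 850 lower genes crowd at the dim left side, and the labelled genes are the 12 highest and 12 lowest of those named; the unlabelled red point at 3.69 is the unnamed transcript Gm6958.

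Against the common baseline of 11 backgrounds, the ThPOK tumours had more called genes than the Pokemon tumours. In the Pokemon tumours 84 genes were higher (0.917%) and 199 lower (2.17%), and in the ThPOK tumours 1394 were higher (15.2%) and 833 lower (9.1%). The ThPOK group has 3 arrays and the Pokemon group 2, and both comparisons share the baseline arrays, so the counts are given side by side only. Without Pokemon array 1 the counts for the Pokemon tumours were 10 higher and 9 lower, and without Pokemon array 2 they were 22 and 86. For the ThPOK tumours the counts without ThPOK arrays 1, 2 and 3 in turn were 817, 716 and 865 higher and 457, 441 and 444 lower.

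Beside Zbtb7a, the genes named for the largest rise in the Pokemon tumours included Dsp, Ly6d, Spsb4 and Susd4. The 12 highest and 12 lowest genes were picked among called genes without overlap between the groups, so their lack of overlap is no result. Their differences from the 11 backgrounds reuse the arrays by which they were picked, so these values are description only. Dsp encodes desmoplakin, which anchors intermediate filaments to desmosomes. Its levels were 10.73 and 11.94 in the Pokemon tumours, against 7.71, 7.39 and 7.26 in the ThPOK tumours. Both Pokemon arrays were far above all ThPOK arrays, and the difference was 3.88 ± 0.88 (adjusted p = 0.00236), or 14.7-fold. All 3 probe sets of Dsp were higher in Pokemon tumours, by 1.24 to 3.92. Of the 15 backgrounds Pokemon ranked highest for Dsp at 11.34 ± 0.86 (SD, n = 2), followed by LMO1 at 10.79 ± 1.16 (SD, n = 3), which is within that spread. Against the 11 backgrounds Dsp was 2.999 higher in the Pokemon tumours (adjusted p = 0.0095). Without Pokemon array 2 the comparison with ThPOK no longer passed (adjusted p = 0.0581).

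Ly6d, a surface protein that marks lymphoid progenitors, had levels of 13.26 and 11.93 in the Pokemon tumours, against 8.58, 8.72 and 9.73 in the ThPOK tumours. The difference of 3.59 ± 1.24 passed only narrowly (adjusted p = 0.0499). Leaving out any 1 of the 5 arrays ended the call (differences from 2.92 to 4.25). Susd4, a complement regulator with sushi domains, had levels of 10.48 and 12.17 in the Pokemon tumours, against 10.15, 8.18 and 7.98 in the ThPOK tumours. ThPOK array 1 came close to Pokemon array 1, and the difference of 2.55 ± 0.57 (adjusted p = 0.00223) did not pass without Pokemon array 2 (adjusted p = 0.133). Spsb4, an adaptor of a ubiquitin ligase, was 2.56 ± 0.58 higher (adjusted p = 0.00248), with 9.95 and 10.30 in the Pokemon tumours against 8.06, 7.27 and 7.36 in the ThPOK tumours.

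Cap1, which recycles actin monomers, had levels of 10.72 and 10.83 in the Pokemon tumours, against 8.40, 8.62 and 8.46 in the ThPOK tumours. The arrays of each group lay close together, and the other probe set gave a difference of 2.31 beside 2.28 ± 0.46 for the one used (adjusted p = 0.000735). Here the ThPOK tumours stood away from the baseline: Cap1 was 0.15 apart in the Pokemon tumours (adjusted p = 0.895) and -2.13 apart in the ThPOK tumours (adjusted p = 2.39e-06). Nt5dc2 had the same layout, at -0.43 in the Pokemon tumours (adjusted p = 0.643) and -2.27 in the ThPOK tumours (adjusted p = 1.99e-06), and differed by 1.84 ± 0.48 between them (adjusted p = 0.00855). The calls of Cap1 and Spsb4 held without each array in turn, whereas that of Nt5dc2 was lost without Pokemon array 1, Pokemon array 2 or ThPOK array 3 (adjusted p from 0.0538 to 0.127).

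The remaining 5 of the 12 highest genes differed by 1.64 to 2.22. Nrarp, a feedback inhibitor that Notch induces, had levels of 10.56 and 11.42 in the Pokemon tumours, against 8.90, 8.58 and 8.83 in the ThPOK tumours. The groups were well apart on all 5 arrays, and the difference of 2.22 ± 0.71 had an adjusted p of 0.0323, with 1.90 for the other probe set. Leaving out any 1 of the 5 arrays ended the call of Nrarp (adjusted p from 0.0586 to 0.244). Atp8a2, a phospholipid flippase, differed by 1.89, Agfg1, an export cofactor, by 1.77, Pde8a, a phosphodiesterase that degrades cyclic AMP, by 1.69, and Ccdc88a, the actin-binding protein girdin, by 1.64. Each of these 4 calls was lost on leaving out at least 3 of the 5 arrays in turn, both Pokemon arrays among them (highest adjusted p 0.244, 0.382, 0.312 and 0.258 in that order).

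The zinc fingers of human ZBTB7A and ZBTB7B select closely similar sites in vitro around the core GACCACC, so this core was looked up on both strands in the promoter window around the start of each gene (RefSeq, GRCm38.p6). It occurs in 919 of 32851 windows (2.80%), and in 867 of 27025 genes with a window (3.21%). Of the 12 highest genes 10 had a window and 1 of them, Nrarp, held the core. Of the 12 lowest genes 6 had a window and none held it. Cd8a has 1 window, Zbtb7a has 1 and Zbtb7b has 2, all without the core. The match in Nrarp starts 200 bases before the start of the gene at position -200 and runs on the same strand. The window, chr2:25180508-25180807 on the plus strand, is shown because it belongs to the Notch target of the comparison, with the core in capitals. It is a description of letters and no measure of binding.
Nrarp promoter window: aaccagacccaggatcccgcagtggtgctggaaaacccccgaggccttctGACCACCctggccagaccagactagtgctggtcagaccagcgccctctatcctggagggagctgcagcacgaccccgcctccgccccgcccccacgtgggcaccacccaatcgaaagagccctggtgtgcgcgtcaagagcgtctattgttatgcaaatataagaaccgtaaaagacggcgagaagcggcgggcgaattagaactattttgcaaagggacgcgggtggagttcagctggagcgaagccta

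The genes named for the largest fall in the Pokemon tumours included Popdc3, Smim27, Gem and Usp18. All 12 stood above the 11 backgrounds in the ThPOK tumours. They were picked partly for high values on these same ThPOK arrays, so that position is no separate result. Smim27, which encodes a small membrane protein, had levels of 9.22 and 9.30 in the Pokemon tumours, against 11.76, 12.01 and 11.93 in the ThPOK tumours. The arrays within a group were nearly level, and the difference of -2.64 ± 0.27 had an adjusted p of 8.33e-09. A dimmer probe set of Smim27 gave 0.04, with levels from 7.18 to 7.28 on all 5 arrays. Unc5c, a netrin receptor, had levels of 8.06 and 8.25 in the Pokemon tumours, against 9.93, 10.34 and 10.33 in the ThPOK tumours, with a difference of -2.04 ± 0.18 (adjusted p = 1.42e-10). Its other probe set, also dim, differed by -0.19. Both calls held without each array in turn.

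Popdc3 and Bves encode Popeye domain proteins, membrane proteins that bind cyclic AMP and are best known from muscle. They are neighbours on chromosome 10, the only neighbouring pair among the 24 genes named for the largest differences, a point noticed after their values were seen. Popdc3 had levels of 7.22 and 7.26 in the Pokemon tumours, against 9.37, 10.26 and 10.32 in the ThPOK tumours, and Bves had 7.90 and 8.08 in the Pokemon tumours, against 9.86, 10.56 and 10.06 in the ThPOK tumours. Both genes were high on all 3 ThPOK arrays and dim on both Pokemon arrays. The differences were -2.74 ± 0.65 for Popdc3 (adjusted p = 0.00371) and -2.18 ± 0.42 for Bves (adjusted p = 0.000568). Popdc3 did not pass without Pokemon array 1 (adjusted p = 0.0875).

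Several of the lowest genes were high on ThPOK arrays 2 and 3 but not on array 1. Gem, a small GTPase that inhibits calcium channels, had levels of 7.11 and 7.13 in the Pokemon tumours, against 7.17, 10.94 and 11.15 in the ThPOK tumours. ThPOK array 1 sat at the Pokemon level, and the ThPOK spread was 2.24 (SD, n = 3) around a difference of -2.63 ± 0.54 (adjusted p = 0.00102). Usp18, an interferon-induced protease that removes ISG15, had levels of 8.29 and 7.89 in the Pokemon tumours, against 8.62, 11.69 and 11.55 in the ThPOK tumours, and Sox13, a factor of gamma delta T cells, had 8.74 and 8.68 in the Pokemon tumours, against 9.09, 11.40 and 11.03 in the ThPOK tumours. Again only ThPOK array 1 was close to the Pokemon arrays. The differences were -2.53 ± 0.73 for Usp18 (adjusted p = 0.0168) and -1.80 ± 0.36 for Sox13 (adjusted p = 0.000653). In the fit of the 5 arrays alone, with their own spread, Gem (adjusted p = 0.138), Usp18 (0.086) and Sox13 (0.0881) did not pass. Of the other named genes, Susd4, Agfg1, Slc40a1, Ets1 and Jag2 did not pass in that fit either (adjusted p from 0.0504 for Slc40a1 to 0.120 for Agfg1).

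Among the other 5 of the 12 lowest genes, Slc40a1 had 8.93 on ThPOK array 2. This was nearer to the 2 arrays of the Pokemon tumours than to the 11.10 and 10.77 of the other ThPOK arrays. Dipk1b differed by -2.43 ± 0.39 (adjusted p = 5.68e-05) and Stc1, the secreted hormone stanniocalcin, by -2.04 ± 0.42 (adjusted p = 0.000984). A second probe set of Stc1 differed by -0.17. Slc40a1, the iron exporter ferroportin, differed by -2.17 ± 0.68 (adjusted p = 0.0306), Cirbp, an RNA-binding protein induced by cold, by -2.03 ± 0.66 (adjusted p = 0.0362), and Fcna, a ficolin made by macrophages, by -2.002 ± 0.52 (adjusted p = 0.00747). Slc40a1 and Cirbp lost their calls without 4 of the 5 arrays in turn (highest adjusted p 0.257 and 0.240), Fcna without Pokemon array 2 (0.146) and Usp18 without 4 of the 5 (highest 0.127). Against the 11 backgrounds the 12 lowest genes were -0.73 (Slc40a1) to -0.12 (Stc1) apart in the Pokemon tumours and 1.32 (Cirbp) to 2.38 (Smim27) higher in the ThPOK tumours. The choice of these genes favoured high ThPOK values, so the ranges describe them and test nothing.

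**Figure D3:**
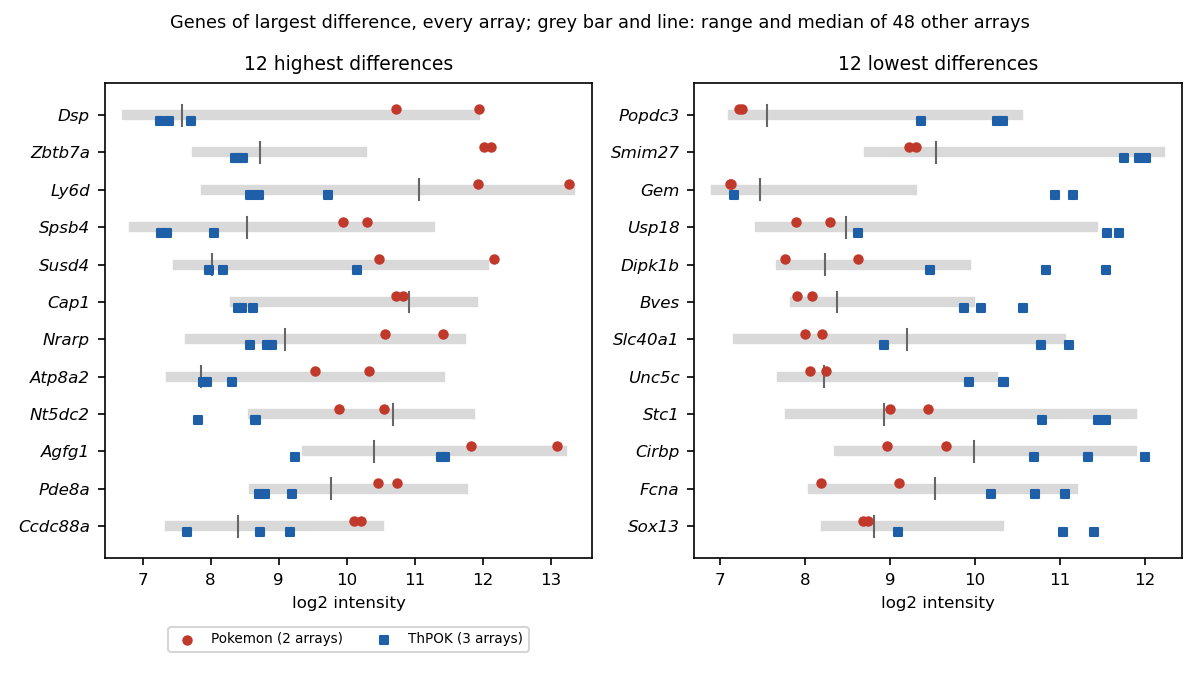
Log2 intensity of the 12 genes of highest (left panel) and the 12 of lowest difference (right panel) on each Pokemon array (red circles) and ThPOK array (blue squares); grey bars give the range and grey lines the median of 48 other arrays. Zbtb7a in the Pokemon tumours lies above the range of the other arrays, as do at least 2 ThPOK arrays for Gem, Usp18, Dipk1b, Bves, Unc5c and Sox13.

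Of the coreceptor genes, Cd8a was higher in the Pokemon tumours by 1 of its 2 probe sets, and Cd4 and Cd8b1 did not pass the test. Cd8a, the alpha chain of CD8, had levels of 10.63 and 11.97 with its dimmer probe set in the Pokemon tumours, against 8.07, 8.17 and 8.17 in the ThPOK tumours. The ThPOK arrays were level and low, and the Pokemon arrays were higher but apart from each other. The difference of 3.16 ± 0.90 had an adjusted p of 0.0116 over all probe sets, and it did not pass without Pokemon array 1 (0.0556) or Pokemon array 2 (0.145). The brighter probe set, used in the comparison over all genes, had 10.36 and 11.75 in the Pokemon tumours, against 9.40, 9.55 and 9.38 in the ThPOK tumours. It showed the same order without overlap, and its difference of 1.61 ± 0.62 did not pass over all genes (adjusted p = 0.0807).

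Set against the 11 backgrounds, both probe sets of Cd8a placed the ThPOK tumours low. The brighter probe set was -0.42 apart in the Pokemon tumours (adjusted p = 0.742) and -2.03 apart in the ThPOK tumours (adjusted p = 0.000362). Pokemon ranked 9 of the 15 backgrounds at 11.06 ± 0.98 (SD, n = 2) and ThPOK 14 at 9.44 ± 0.09 (SD, n = 3). With the other probe set the Pokemon tumours were -0.29 apart (adjusted p = 0.889) and the ThPOK tumours -3.45 (adjusted p = 3.76e-05).

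Cd8b1, the beta chain of CD8, had levels of 11.74 and 10.30 in the Pokemon tumours, against 11.90, 9.24 and 10.59 in the ThPOK tumours. The groups overlapped fully, and the difference of 0.45 ± 0.82 (95% interval -1.21 to 2.10) did not pass (adjusted p = 0.784). Cd4 had 10.46 and 10.89 in the Pokemon tumours, against 9.37, 11.11 and 11.18 in the ThPOK tumours. ThPOK array 1 was the lowest and the other ThPOK arrays the highest of the 5, with a difference of 0.12 ± 0.45 (95% interval -0.78 to 1.02; adjusted p = 0.900). The intervals for Cd4 and Cd8b1 include changes of 2-fold, so equal levels are not shown.

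Of 22 listed genes of the coreceptors and their lineage regulators, 18 were tested; 2 rose and none fell, beside 2.64% and 9.28% of all genes. Ets1, a factor needed for normal Runx3 expression in CD8 T cells, had levels of 12.46 and 12.52 in the Pokemon tumours, against 12.03, 11.93 and 11.28 in the ThPOK tumours, a difference of 0.74 ± 0.21 (adjusted p = 0.018). Its 4 probe sets ranged from -0.00 to 2.04. The widest gap was that of a probe set with 10.43 and 10.49 in the Pokemon tumours against 8.46, 8.63 and 8.17 in the ThPOK tumours (2.04 ± 0.35, adjusted p = 0.000107), and this probe set of Ets1 was 0.07 apart in the Pokemon tumours and -1.97 apart in the ThPOK tumours relative to the 11 backgrounds. Cbfb, the partner of all Runx proteins, had 12.34 and 12.38 in the Pokemon tumours, against 11.61, 11.74 and 11.79 in the ThPOK tumours (0.64 ± 0.20, adjusted p = 0.0254). Ets1 as used in the comparison over all genes lost its call without Pokemon array 1, Pokemon array 2 or ThPOK array 3 (highest adjusted p 0.154), and Cbfb, the 1 gene called of the 4 tested of the Runx family, without 4 of the 5 arrays in turn (highest 0.184).

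Runx3, the factor that ThPOK opposes, did not pass the filter on low levels. Its probe set had levels of 8.12 and 8.19 in the Pokemon tumours, against 8.78, 8.72 and 8.74 in the ThPOK tumours. All 5 levels lay below the median of their own array. The difference was -0.59 ± 0.10 (adjusted p = 0.000114 over all probe sets). Runx1, which silences Cd4 in early thymocytes, differed by -0.22 ± 0.23 with the probe set used (adjusted p = 0.587), while its 5 probe sets ranged from -0.22 to 1.46, the last with an adjusted p of 0.0108.

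The other lineage regulators did not pass. Gata3, needed for the CD4 lineage, differed by -0.27 ± 0.50, and Tox, which acts before ThPOK, by 0.02 ± 0.66. Myb differed by 0.54 ± 0.54, Lef1 by 0.74 ± 0.57, Satb1 by 0.35 ± 0.75 and Bcl11b by 0.46 ± 0.57. Ikzf1, the gene of Ikaros, came closest at 0.68 ± 0.32 (adjusted p = 0.165). Patz1 (-0.28), Socs1 (-0.30), Tcf12 (0.31), Tcf3 (-0.08) and Chd4 (-0.34) had small differences, and the adjusted p of these 12 genes ranged from 0.165 for Ikzf1 to 0.988 for Tox.

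Of 18 listed helper T-cell genes 10 were tested; none rose and 2 fell, beside 9.28% of all genes. Tnfrsf4, the costimulatory receptor OX40, had levels of 9.39 and 9.83 in the Pokemon tumours, against 10.36, 10.51 and 10.30 in the ThPOK tumours (-0.78 ± 0.19, adjusted p = 0.00486). Il13, a cytokine of type 2 helper cells, was near the array medians, with 8.83 and 8.84 in the Pokemon tumours against 9.36, 9.22 and 9.29 in the ThPOK tumours (-0.45 ± 0.12, adjusted p = 0.00683). Neither gene overlapped between groups, and both calls were lost without Pokemon array 1 (adjusted p = 0.259 for Tnfrsf4 and 0.114 for Il13). Of 18 cytotoxic effector genes 7 were tested and none was called. Gzma, granzyme A, was bright, with 13.15 and 13.08 in the Pokemon tumours and 11.59, 13.17 and 12.19 in the ThPOK tumours, and differed by 0.80 ± 1.17 (adjusted p = 0.720). Nkg7 was between 7.56 and 7.67 on all 5 arrays.

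**Figure D4:**
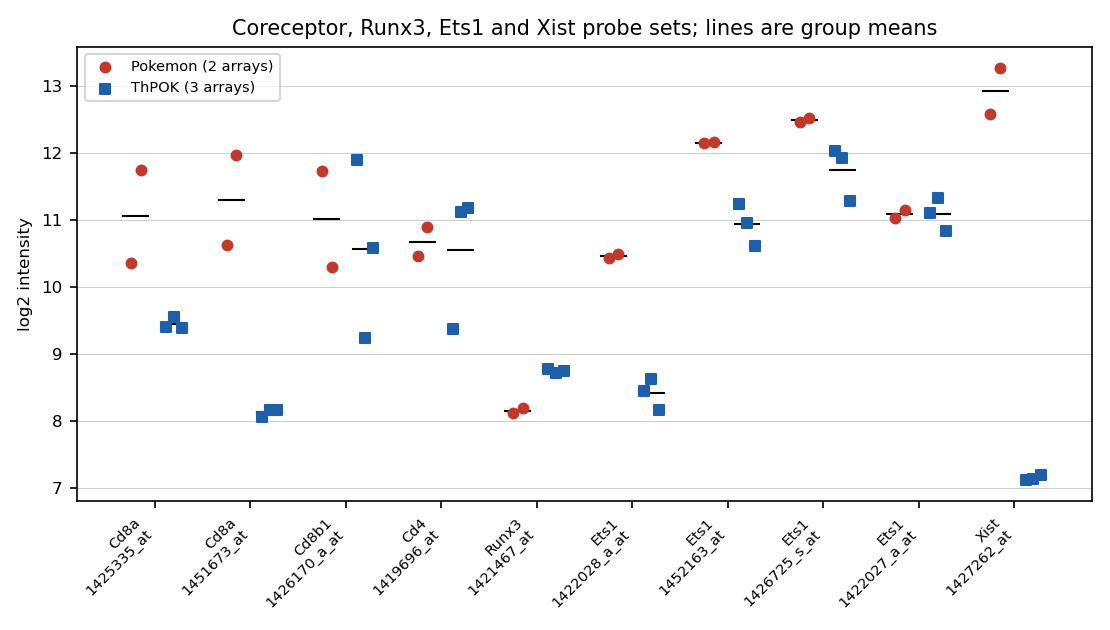
Log2 intensity of 10 probe sets of Cd8a, Cd8b1, Cd4, Runx3, Ets1 and Xist on each Pokemon array (red circles) and ThPOK array (blue squares), with group means as lines. The ThPOK arrays are low for both Cd8a probe sets, while Cd4 and Cd8b1 overlap between the groups.

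Of 10 genes reported as LRF targets, 9 were tested, 1 rose and none fell, beside 2.64% and 9.28% of all genes. Their median was -0.38, beside -0.09 for all genes. Rb1, the retinoblastoma tumour suppressor, rose, with 10.69 and 10.93 in the Pokemon tumours against 10.003, 9.63 and 9.68 in the ThPOK tumours. The groups did not overlap, and the difference of 1.04 ± 0.25 (adjusted p = 0.00443) did not pass without Pokemon array 2 (0.0666). Relative to the 11 backgrounds Rb1 was 0.32 apart in the Pokemon tumours (adjusted p = 0.470) and -0.72 apart in the ThPOK tumours (adjusted p = 0.00152). Cdkn2a, whose locus encodes Arf and p16, was dim, with 7.78 and 8.08 in the Pokemon tumours, against 8.41, 8.42 and 8.23 in the ThPOK tumours. Its difference of -0.42 ± 0.34 (adjusted p = 0.464) did not pass, and its probe set does not say which of the products it measures.

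Among the other reported targets, Cdkn1a, the cell cycle inhibitor p21, differed by -0.85 ± 0.54 (adjusted p = 0.331), and Bcl2l11, the death inducer Bim, by 0.36 ± 0.50 (adjusted p = 0.701). Dll4, a Notch ligand that LRF represses in erythroblasts, had 7.60 and 7.78 in the Pokemon tumours, against 8.24, 8.33 and 8.16 in the ThPOK tumours, a difference of -0.55 ± 0.21 (adjusted p = 0.0836) at a level below the array medians. With the probe sets used, the glycolytic targets Slc2a3 (-0.73), Pfkp (0.60) and Pkm (0.02) and the cell cycle factor E2f4 (-0.38) did not pass either. Their adjusted p ranged from 0.198 for Pfkp to 0.966 for Pkm. A dimmer probe set of Slc2a3 differed by -0.53 and did pass (adjusted p = 0.0171 over all probe sets). Hbb-bh1, an embryonic globin gene, did not pass the filter on low levels.

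Of 25 listed Notch pathway genes 22 were tested, 2 rose and 2 fell, beside 2.64% and 9.28% of all genes. The median was 0.15, beside -0.09 for all genes. Beside Nrarp, Rbpj rose, the DNA-binding partner of Notch, with 10.69 and 10.55 in the Pokemon tumours against 10.11, 9.997 and 10.05 in the ThPOK tumours (0.57 ± 0.16, adjusted p = 0.0184). Hes5, a target of Notch, fell, with 8.36 and 8.36 in the Pokemon tumours against 9.03, 9.03 and 9.16 in the ThPOK tumours (-0.71 ± 0.18, adjusted p = 0.00527), and Jag2, a ligand, fell by 0.43 ± 0.14 (adjusted p = 0.0336). Neither Rbpj nor Hes5 overlapped between the groups with the probe set used. A dimmer probe set of Hes5 differed by 0.09, and the other probe set of Jag2 by -0.21. The other probe set of Rbpj, also dimmer, differed by 0.44 and did not pass (adjusted p = 0.0973 over all probe sets). Rbpj lost its call without Pokemon array 1 or ThPOK array 2 (highest adjusted p 0.258), Hes5 without Pokemon array 1 (0.0997) and Jag2 without 3 of the 5 arrays in turn (highest 0.555).

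The receptor and most classical targets of Notch did not pass. Notch1 had levels of 12.84 and 12.99 in the Pokemon tumours, against 12.19, 12.97 and 13.05 in the ThPOK tumours, and Hes1 had 10.15 and 10.49 in the Pokemon tumours, against 9.93, 10.22 and 10.42 in the ThPOK tumours. Both genes overlapped between the groups, with adjusted p of 0.918 and 0.885. Ptcra, which encodes the invariant chain of the pre-T-cell receptor, had 11.63 and 12.15 in the Pokemon tumours, against 8.81, 9.48 and 10.59 in the ThPOK tumours. All ThPOK arrays were below the Pokemon arrays, and the difference of 2.26 ± 0.89 had an adjusted p of 0.087. Dtx1 differed by 0.41 ± 0.93 and Myc by 0.73 ± 0.37 (adjusted p = 0.826 and 0.205).

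None of the 15 tested genes of double-positive thymocytes (18 listed) passed, although several differences were large. Rag1, the recombinase, had 12.51 and 12.42 in the Pokemon tumours, against 11.33, 8.99 and 9.50 in the ThPOK tumours (2.53 ± 1.03, adjusted p = 0.101). Ccr9, a thymic homing receptor, had 10.26 and 9.44 in the Pokemon tumours, against 11.54, 12.67 and 12.43 in the ThPOK tumours (-2.37 ± 1.12, adjusted p = 0.168). Neither gene overlapped between the groups. Dntt, which adds nucleotides at receptor joints, differed by 1.44 ± 0.87 (adjusted p = 0.298). Of 18 early progenitor genes 10 were tested, and Bcl11a alone was called, as lower, beside 9.28% of all genes. It had 7.97 and 8.32 in the Pokemon tumours, against 9.13, 9.39 and 9.04 in the ThPOK tumours (-1.05 ± 0.21, adjusted p = 0.000984). The call was lost without Pokemon array 1, where the difference was -0.87. A dimmer probe set of Bcl11a differed by 0.14.

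Of the T-cell markers, Cd3d and Thy1 were bright in both groups. Cd3d was 12.92 and 13.13 in the Pokemon tumours, against 13.03, 13.01 and 13.04 in the ThPOK tumours, and Thy1 was 13.20 and 13.21 in the Pokemon tumours, against 13.43, 13.56 and 13.45 in the ThPOK tumours. None of 21 tested members of the receptor complex and its proximal signalling was called, beside 11.9% of all genes. Cd28, a costimulatory receptor, had 11.44 and 12.18 in the Pokemon tumours, against 11.54, 8.90 and 8.91 in the ThPOK tumours. ThPOK array 1 reached the Pokemon level, and the difference was 2.03 ± 0.72 (adjusted p = 0.0574). Cd5, also a T-cell marker and a negative regulator of receptor signalling, was lower in the ThPOK tumours without passing. It differed by 1.54 ± 0.71 (adjusted p = 0.154).

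DNA replication genes were the list with most members called higher. All 29 genes on the arrays (30 listed) were tested, 5 rose and 1 fell, beside 2.64% and 9.28% of all genes. The list had a median of 0.49, 28 of its 29 members were positive and 25 did not overlap between the groups, beside 41.2% of all genes positive and 57.4% without overlap. The share of all genes includes the dim ones, whose differences leaned negative. In the brightest tertile of 3052 genes 121 were higher and 62 lower, with a median of 0.08. No list was compared with genes of its own level, which also limits the positive shares of the lists below. Cdc6, which loads the replicative helicase, had levels of 11.18 and 11.05 in the Pokemon tumours, against 9.56, 10.03 and 9.38 in the ThPOK tumours (1.46 ± 0.44, adjusted p = 0.0222). Cdc45, a helicase cofactor, rose by 1.14 ± 0.34 (adjusted p = 0.0214), and of the helicase subunits Mcm4 rose by 1.06 ± 0.31, Mcm5 by 0.88 ± 0.29 and Mcm6 by 0.75 ± 0.25 (adjusted p from 0.0175 to 0.0382).

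Tyms, the thymidylate synthase gene, was the exception, with 9.10 and 9.27 in the Pokemon tumours against 9.58, 9.88 and 9.53 in the ThPOK tumours (-0.48 ± 0.15, adjusted p = 0.0346). Its call was lost after quantile normalization and after centring. The summed intensity of the replication genes was 108388 and 103947 in the Pokemon tumours, against 68888, 81908 and 65566 in the ThPOK tumours, within the 43908 to 118610 of the other 48 arrays. ThPOK array 2 was the highest of its group. The number of members called higher was 0 without Pokemon array 1, 1 without Pokemon array 2, 1 without ThPOK array 1, 5 without ThPOK array 2 and 0 without ThPOK array 3, while the median stayed between 0.40 and 0.58. Against the 11 backgrounds Cdc6 was 0.43 apart in the Pokemon tumours (adjusted p = 0.590) and -1.02 apart in the ThPOK tumours (adjusted p = 0.00843), and Mcm4 was 0.15 apart in the Pokemon tumours (adjusted p = 0.824) and -0.91 apart in the ThPOK tumours (adjusted p = 0.00107). With the probe set of largest interquartile range Mcm4 did not pass (adjusted p = 0.420).

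Of 25 tested mitosis genes 2 rose and none fell, beside 2.64% and 9.28% of all genes. Their median was 0.31, and 18 of the 25 were positive, beside 41.2% of all genes. Ttk, the spindle checkpoint kinase, rose by 0.79 ± 0.26 (adjusted p = 0.0375) and Prc1, which bundles spindle microtubules, by 0.77 ± 0.25 (adjusted p = 0.034). Each call was lost without Pokemon array 1, Pokemon array 2, ThPOK array 1 or ThPOK array 3 (highest adjusted p 0.197 and 0.284). The other probe set of Prc1 differed by 0.45 and did not pass (adjusted p = 0.101 over all probe sets). Of 20 G1 cyclin, kinase and inhibitor genes 1 was called, which was Rb1, and the median was -0.02. None of 22 ribosome biogenesis genes (median -0.07) and none of 15 glycolysis genes (median 0.13) was called.

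**Figure D5:**
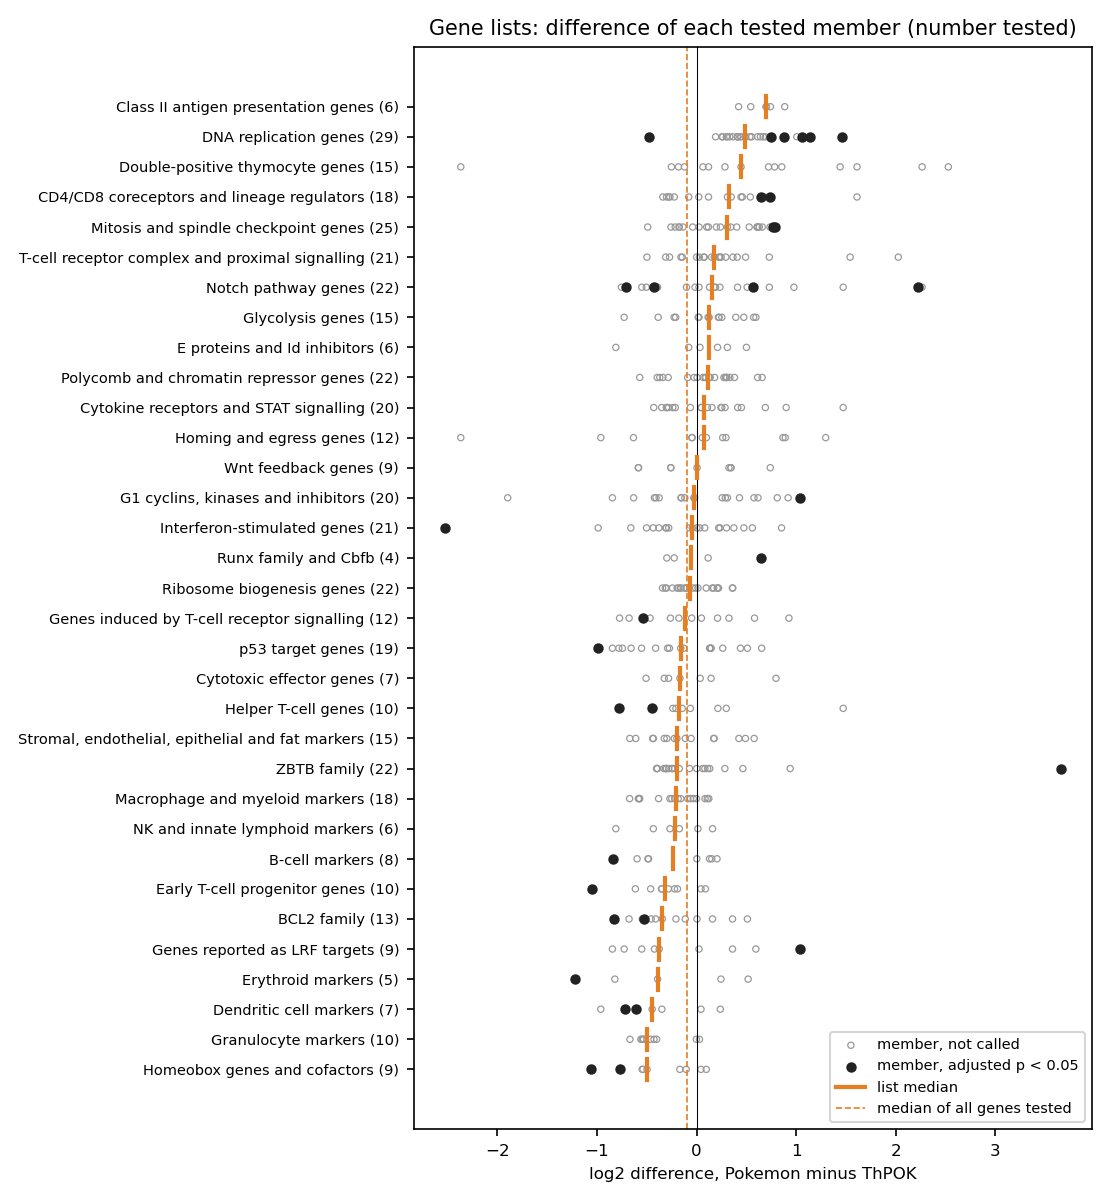
Each line is a gene list with the number of members tested; circles are the log2 differences, Pokemon minus ThPOK, of the members, filled where the adjusted p was under 0.05, orange bars are list medians and the dashed line is the median of all 9156 genes, -0.09. DNA replication genes lie almost wholly right of zero, and the homeobox and granulocyte lists have the lowest medians, -0.50.

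In the BCL2 family 2 of 13 tested genes fell and none rose, beside 9.28% and 2.64% of all genes: Bak1, a pore-forming executioner, with 9.25 and 9.26 in the Pokemon tumours against 10.28, 10.04 and 9.93 in the ThPOK tumours (-0.83 ± 0.23, adjusted p = 0.013), and Bmf, a BH3-only inducer, by 0.53 ± 0.16 (adjusted p = 0.0256). Of 19 tested p53 targets, 1 fell and none rose, beside the same shares of all genes. This was Aen, an apoptosis-enhancing nuclease, with 9.66 and 9.57 in the Pokemon tumours against 10.63, 10.49 and 10.69 in the ThPOK tumours (-0.99 ± 0.17, adjusted p = 0.000172). With this probe set Aen was also lower in the Pokemon tumours than in the 11 backgrounds, by -0.69 (adjusted p = 0.00287). The mean of these backgrounds includes the p53 knockout tumours. The call between the groups held without each array in turn. The other probe sets of Aen differed by -0.52 and -0.12 and did not pass (adjusted p = 0.0853 and 0.600 over all probe sets). Against the 11 backgrounds they were -0.03 and -0.05 apart in the Pokemon tumours. A dimmer probe set of Bak1 differed by -0.37 and did not pass (adjusted p = 0.125 over all probe sets). Bak1 lost its call without Pokemon array 1, Pokemon array 2 or ThPOK array 1 (highest adjusted p 0.152), and Bmf without 4 of the 5 arrays in turn (highest 0.258).

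Among homeobox genes 2 of 9 fell, beside 9.28% of all genes. These were Tlx3, which fell by 1.06 ± 0.23 (adjusted p = 0.0019), and Hoxa3, by 0.76 ± 0.20 (adjusted p = 0.00827). Tlx3, an oncogene of human T-cell leukaemia, had levels of 8.45 and 8.38 in the Pokemon tumours, against 9.58, 9.37 and 9.47 in the ThPOK tumours. Hoxa3 lost its call without Pokemon array 1 (difference -0.58), and its dimmer probe set differed by 0.10. Beside the same 9.28% of all genes, 1 of 12 tested genes that receptor stimulation induces in T cells fell, the orphan receptor Nr4a2, by 0.54 ± 0.16 (adjusted p = 0.0225), a call lost without 4 of the 5 arrays in turn (highest 0.259). Usp18 was the 1 of 21 interferon-stimulated genes that was called, where 11.9% of all genes were called. Class II antigen presentation genes were positive for 6 of 6 members, beside 41.2% of all genes, with a median of 0.70, but none passed; Cd74 had 11.40 and 11.91 in the Pokemon tumours, against 11.48, 11.21 and 10.19 in the ThPOK tumours. No member was called of the lists for polycomb and chromatin repressors (22 tested, median 0.11), cytokine receptors (20, 0.08), homing (12, 0.08), Wnt feedback (9, 0.00) and E proteins with their Id inhibitors (6, 0.12).

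Of the markers of other cell types, 4 were called, all lower in the Pokemon tumours, out of the tested members given for each list below. Among all genes 9.28% were called lower and 2.64% higher, so lower calls were the more frequent there too. None of 18 macrophage and myeloid markers was called (median -0.20), and their summed intensity was 36284 and 27960 in the Pokemon tumours, against 46988, 34179 and 42673 in the ThPOK tumours. Fcna, made by macrophages, moved in the same direction as this sum, and the part of macrophages in its difference was not tested. Of 8 B-cell markers 1 fell, Cr2 by 0.84 ± 0.21 (adjusted p = 0.00486), and of 7 dendritic cell markers 2 fell, Ccl22 by 0.71 ± 0.23 (adjusted p = 0.0344) and Batf3 by 0.61 ± 0.13 (adjusted p = 0.00139). Of 5 erythroid markers 1 fell, the red cell anion exchanger Slc4a1, by 1.22 ± 0.21 (adjusted p = 0.000172). The other probe sets of Slc4a1 were dimmer and differed by -0.02 and 0.01. The calls of Cr2 and Batf3 were lost without Pokemon array 1 (highest adjusted p 0.158 for Batf3 and 0.261 for Cr2), that of Ccl22 without any of Pokemon arrays 1 and 2 and ThPOK arrays 1 and 2 (highest 0.359), and that of Slc4a1 held without each array in turn. None of 10 granulocyte (median -0.50), 6 natural killer and innate lymphoid (-0.22) and 15 stromal, endothelial, epithelial and fat markers (-0.20) was called.

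Of the sex-linked transcripts, Xist separated the groups without passing the test. Xist, the RNA of the inactive X chromosome, had levels of 12.59 and 13.28 in the Pokemon tumours, against 7.12, 7.13 and 7.19 in the ThPOK tumours, with its probe set of largest gap. Both Pokemon arrays were high and all 3 ThPOK arrays low, and Xist differed by 5.78 ± 2.26 (adjusted p = 0.0701 over all probe sets). Most other backgrounds held both high and low arrays, as in the E2A knockout at 12.66 and 8.21 with another Xist probe set. The pooled spread was therefore wide, and the test could hardly pass for Xist. The Y-linked gene Eif2s3y had 6.66 and 6.80 in the Pokemon tumours, against 10.28, 7.02 and 7.20 in the ThPOK tumours, so it was high on ThPOK array 1 alone. Uty was the 1 gene called of 4 sex-linked genes tested, beside 11.9% of all genes, and differed by -0.87 ± 0.26 (adjusted p = 0.0236). With the probe set of largest interquartile range Uty did not pass (adjusted p = 0.420). Its call was lost without 4 of the 5 arrays in turn (differences from -1.04 to -0.74 over the 5 fits). Kdm5d, also on Y, had 6.88 and 6.82 in the Pokemon tumours, against 8.74, 8.45 and 7.08 in the ThPOK tumours. The transgene and the Xist state cannot be told apart within these 5 arrays.

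With the Xist state of all 53 arrays as a covariate, an alternative chosen after seeing the data, 176 genes were higher and 824 lower in the Pokemon tumours, of which 156 and 707 were also called without it. Of the genes past 2-fold, 40 of 51 higher and 76 of 81 lower genes were still called. The named genes that did not pass with this covariate were Ly6d, Agfg1, Pde8a, Ccdc88a, Cbfb, Jag2, Rbpj, Nr4a2, Mcm5, Ttk and Prc1, at adjusted p from 0.0503 for Mcm5 to 0.121 for Ccdc88a. On the X chromosome 10 of 259 tested genes were higher and 20 lower, or 11.6%, beside 11.9% of the 8892 genes on autosomes or unplaced.

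The scaling of the arrays also ended some calls of named genes. After centring on the array medians Cirbp, Il13, Jag2, Nr4a2, Bak1, Bmf and Ccl22 no longer passed, at adjusted p from 0.0509 for Bak1 to 0.154 for Jag2. After quantile normalization Ly6d, Cbfb, Jag2, Bmf, Cdc45, Mcm5, Prc1 and Ccl22 no longer passed, at adjusted p from 0.0504 for Cdc45 to 0.163 for Bmf.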

How the data were processed

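The values are the intensities that the authors deposited for 53 Affymetrix arrays, on a linear scale; normalization and summary of probe sets are not given in the sources used here. Total RNA was extracted with Trizol and labelled with biotin, per the labels' protocols. Array means of 1042 to 1104 lay close together and medians did not. Each value was log2 transformed. Of 22690 probe sets, 64 controls were left out, 20393 carried 1 gene symbol, 691 several and 1606 none or none that was used; 20364 were matched by Entrez identifier to RefSeq names. Each of 12393 genes was represented by its probe set of highest mean over all arrays, and the 9156 genes that exceeded the median of 3 or more arrays were tested.

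The main test was limma 3.58.1 (lmFit and eBayes, R 4.3.3) with 1 mean per background over all 53 arrays (38 residual degrees of freedom), the contrast Pokemon minus ThPOK, Benjamini-Hochberg adjustment over 9156 genes and a threshold of 0.05. Single probe sets were adjusted over all probe sets but controls. An exact permutation test of 2 against 3 arrays has 10 splits and cannot go below 0.1, so none was used. Data were simulated for this comparison over 9156 genes with 200 changed. Of changes of 1 on the log2 scale 66% were recovered, with 5.04% false calls. For changes of 2 it was 92.5%, with 1.07%. The simulated noise was normal, independent between genes, equal in all groups and without shifts of array medians, so these rates may not hold for the real arrays. The number of arrays limits the precision.

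The genes named were Zbtb7a and Zbtb7b, the 12 highest and 12 lowest called differences without overlap (leaving out unnamed transcripts, probe sets of several genes, receptor segments, Xist, Tsix and Y-linked genes), up to 4 called members of each of 34 lists, and the coreceptor and LRF target lists in full. Members, lists and tests were chosen with earlier results of these data known. Other genes are named to describe a list. Probe set choice, filter, normalization, variance model, arrays sharing the spread and each array of the groups were varied. Replicate numbers are those of the labels, which do not say that equal numbers share an animal or a day. Python 3.11.15, pandas 2.3.3 and Matplotlib 3.10.9 were used for promoters and figures.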

Additional observations from a re-analysis of the deposited data

Results flagged for a closer look

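For Zbtb7b, 1 array of the Cdkn2a knockout tumours from retroviral insertional mutagenesis stood apart from the other 8 of its group, at 9.45 with the dimmer and at 9.89 with the brighter probe set, the highest array of the group in each case. The gap to the next array, divided by the range of the group, exceeded Dixon's limit. Chance exceeds it in about 1 in 20 groups, and 9 combinations of group and probe set of Zbtb7a and Zbtb7b were examined. These arrays enter the comparison only through the pooled spread and the mean of 11 backgrounds.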

How the results depend on the processing

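Zbtb7a kept its direction and call in each setting in which it was tested (the stricter filter left it out), between 3.61 and 3.71 without each array in turn. Zbtb7b, not called with its brighter probe set, ranged from -0.48 to -0.31 without each array and passed as the mean of its probe sets (-0.84, adjusted p = 0.0122) and with its dimmer probe set, alone or as that of largest interquartile range (-1.27 in both). The counts moved more. Higher genes numbered 242, but 367 with the probe set of largest interquartile range, 420 after centring, 596 from the 5 arrays alone and 50 to 181 without 1 array; lower genes numbered 850, but 1855 without the filter, 403 with a filter on at least 27 arrays, 509 after centring and 120 to 699 without 1 array. Past 2-fold the higher genes were 143 by interquartile range, 104 after centring, 94 from 5 arrays and 28 to 54 without 1 array, and the lower genes 38 with the stricter filter, 41 after centring and 36 to 111 without 1 array. Against the backgrounds, Pokemon had 10 to 82 higher and 9 to 189 lower genes without 1 array, 129 lower against 13 backgrounds and 336 lower without the filter; ThPOK had 2388 higher without the filter, 861 with the stricter one, 892 after centring and 716 to 1378 without 1 array, and 441 to 814 lower. Apart from tests on fewer genes or arrays, the cause of these shifts was not tested. With the replicate block in the 5 arrays, 423 genes were higher and 912 lower, 100 and 136 of them past 2-fold. The deviations of same-numbered arrays had r = 0.02, but 2 pairs cannot show whether they share an animal or a day. Of 50 called named genes, 13 kept the call without each array in turn.

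Of the single genes named, signs turned only in ones that were not called. Without 1 array Cd4 ranged from -0.47 to 0.43, Cd8b1 from -0.27 to 1.16, Tox from -0.28 to 0.18, Socs1 from -0.51 to 0.013, Tcf3 from -0.20 to 0.054, Bcl2l11 from -0.074 to 0.80 and Pkm from -0.11 to 0.13. Cd4 was -0.061 and Tox -0.067 with the Xist covariate. Runx1 was 0.40 and Chd4 0.090 as means of probe sets, and 0.90 and 0.47 by interquartile range. Tcf3 was 0.24 as the mean, 0.38 by interquartile range, 0.056 after centring and 0.054 with the block, and Pkm was -0.027 after quantile normalization. Signal near the array median and the small groups limit what can be called.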
